A study of Mus musculus with 2 samples.

Results

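New combinations of known splice sites are transcripts that join annotated donor and acceptor sites in an order that no annotated transcript of the gene has. The chains described here are those that recurred. A chain is the full ordered set of introns of a model with 2 or more exons, and it was kept when both libraries gave it the class NIC, a new combination of catalogued sites, on an annotated gene and each library held 5 or more reads of it. This gave 988 chains in 763 genes, out of 6698 chains that were NIC in both libraries and 138683 spliced chains on annotated genes in all. A further 160 chains with 5 or more reads in each library were left out because the other library gave them another class, NNC (with an uncatalogued splice site) in 107, ISM (an incomplete match) in 52 and Genomic in 1. The other 5710 chains that were NIC in both libraries fell short of 5 reads in at least 1 library. The members were chosen by read counts and class, so their read levels are a description and no test is made on being read in both libraries.

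The RNA was total RNA from left cerebral cortex, taken at 18 to 20 months of age. The mice were B6CASTF1/J, an F1 cross between C57BL/6 and CAST, a strain bred from wild mice. The 2 libraries form 1 group with no treatment, induced mutation or control, and 2 µg of RNA went into each. Their labels call them biological replicates 1 and 2 with a separate biosample entry for each. They also give both the same donor entry and the same free-text note, which names a pair of codes. Whether the libraries came from separate animals is thus not known, so the spread between them may be technical. The tests compare 1 library with 1 library, so their p-values cover counting error only and hold no estimate of that spread. The labels give the sex as female in one field and male in a free-text note. Xist had 34 and 29 reads, and Ddx3y, Eif2s3y, Kdm5d and Uty had 0 reads in both libraries.

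Replicate 1 held 857784 mouse reads and replicate 2 held 827970. Of these, 19892 reads of replicate 1 (2.32%) and 17555 reads of replicate 2 (2.12%) were on recurrent chains. The 95% Wilson interval ran from 2.29% to 2.35% for replicate 1, and for replicate 2 from 2.09% to 2.15%. Intervals here cover counting error only. Markers of cortical excitatory neurons, all 7 of which were read in both libraries, summed to 4283 and 4248 CPM (counts scaled to reads on annotated genes). Genes taken as markers of neighbouring regions and of blood were read too. For striatum, the 4 genes Ppp1r1b, Drd1, Drd2 and Adora2a summed to 425 and 378 CPM. For hippocampus, the 2 genes Prox1 and Wfs1 summed to 263 and 267 CPM. For blood, the 2 genes Hba-a1 and Hbb-bs summed to 365 and 188 CPM. Of 3 choroid plexus markers, Folr1 and Aqp1 had 0 reads and the sum was 23.2 and 7.36 CPM. Of 2 thalamus markers, Gbx2 had 0 reads and the sum was 6.45 and 5.89 CPM. Whether the reads of these genes came from such tissue or from cortex itself was not tested. The part of such tissue in the results was not tested either.

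Most mouse genes with several exons make more than a single transcript, by choosing between start sites, splice sites, exons and ends, and brain is known for using many of these choices. A splice donor is the site at the 5′ end of an intron and an acceptor the site at its 3′ end. A stretch gained or lost inside a coding region keeps the reading frame when its length is a multiple of 3. Annotation lists whole transcripts, so a molecule may combine listed choices in an unlisted way.

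The sequences below show what set the recurrent chain apart from an annotated transcript for chains among the most read of their kind. All lie inside the annotated coding region, on the mm10 assembly, and were read from the GENCODE M21 transcripts. Each has 20 bases on both sides of the difference, 5′ to 3′ on the gene's strand. Capitals mark the bases that 1 of the 2 forms lacks, and where a form lacks them, the 2 bases at its join. The antizyme genes Oaz1 (chr10:80828272-80828315, plus strand) and Oaz2 (chr9:65686249-65686292, plus strand) come first. Their transcripts Oaz1-201 and Oaz2-201 leave out 4 bases, counted here as an annotated intron, that the most read chain of each gene keeps.
Oaz1, recurrent: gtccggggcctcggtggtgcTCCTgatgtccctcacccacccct
Oaz1, annotated Oaz1-201: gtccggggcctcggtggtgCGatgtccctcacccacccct
Oaz2, recurrent: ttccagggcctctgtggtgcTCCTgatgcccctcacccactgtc
Oaz2, annotated Oaz2-201: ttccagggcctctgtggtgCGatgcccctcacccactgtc

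The same 4 letters were left out in both annotated transcripts shown, while Oaz1-202, nearest to a further Oaz1 chain, leaves out 1 base. Antizymes bind ornithine decarboxylase and hold back polyamine synthesis, and their mRNAs are known for a programmed +1 ribosomal frameshift at a stop codon. Whether the annotated gap stands for spliced RNA or for this frameshift was not tested.

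Sept7 (chr9:25252680-25265413, plus strand), Phb2 (chr6:124716011-124716625, plus strand) and Mpc1 (chr17:8283942-8296554, plus strand) are shown next, because annotated transcripts hold exons of 5, 6 and 4 bases that the recurrent chains join across. The joins in Sept7 and Mpc1 are in no annotated transcript of the gene.
Sept7, recurrent: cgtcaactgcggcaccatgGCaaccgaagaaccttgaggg
Sept7, annotated Sept7-201: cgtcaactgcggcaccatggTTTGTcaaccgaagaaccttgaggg
Phb2, recurrent: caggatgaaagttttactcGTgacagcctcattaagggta
Phb2, annotated Phb2-201: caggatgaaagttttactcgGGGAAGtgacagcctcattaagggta
Mpc1, recurrent: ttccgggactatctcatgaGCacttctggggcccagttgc
Mpc1, annotated Mpc1-201: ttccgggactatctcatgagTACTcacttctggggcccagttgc

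The last set shows a shifted acceptor, an intron removed from an exon and an included exon. Ctbp1 (chr5:33248664-33249126, minus strand) moved an acceptor by 3 bases, Klc1 (chr12:111787577-111789368, plus strand) by 24 bases, and Csnk1g2 (chr10:80638060-80638180, plus strand) removed 81 bases from an annotated exon. Ccdc149 (chr5:52385202-52392690, minus strand) included an exon of 33 bases.
Ctbp1, recurrent: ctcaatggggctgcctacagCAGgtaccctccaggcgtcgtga
Ctbp1, annotated Ctbp1-211: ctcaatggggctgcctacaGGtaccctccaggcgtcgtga
Klc1, recurrent: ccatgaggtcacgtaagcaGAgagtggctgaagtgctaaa
Klc1, annotated Klc1-202: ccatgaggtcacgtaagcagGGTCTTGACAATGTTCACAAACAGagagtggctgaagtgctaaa
Csnk1g2, recurrent: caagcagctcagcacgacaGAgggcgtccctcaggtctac
Csnk1g2, annotated Csnk1g2-201: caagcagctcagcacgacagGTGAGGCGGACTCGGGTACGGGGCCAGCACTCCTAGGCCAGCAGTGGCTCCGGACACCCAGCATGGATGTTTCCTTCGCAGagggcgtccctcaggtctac
Ccdc149, recurrent: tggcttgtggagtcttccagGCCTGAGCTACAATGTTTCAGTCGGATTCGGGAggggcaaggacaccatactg
Ccdc149, annotated Ccdc149-201: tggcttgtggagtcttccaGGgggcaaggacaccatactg

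The read counts of these chains fill nearly the whole gene in several cases. The Oaz1 chain that keeps the 4 bases had 934 of 969 gene reads in replicate 1 (96.4%, 95.02 to 97.4) and 869 of 925 in replicate 2 (93.9%, 92.2 to 95.3). No annotated Oaz1 chain had a read in either library. Oaz2 had 359 of 392 reads (91.6%, 88.4 to 93.9) and 297 of 338 (87.9%, 84.0 to 90.9), again with 0 reads on annotated chains. In both antizyme genes most reads were thus assigned to the chain with the 4 bases in the exon.

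Sept7, a septin of the filament-forming GTPases, had 393 of 462 reads on the chain that joins across the 5-base exon (85.1%, 81.5 to 88.0) and 340 of 413 (82.3%, 78.4 to 85.7). Its annotated chains had 0 reads in both libraries. Phb2, a prohibitin of the inner mitochondrial membrane, had 91 of 102 reads (89.2%) and 68 of 83 (81.9%), and its most read annotated chain had 1 read over both libraries. Mpc1, a subunit of the mitochondrial pyruvate carrier, had 155 of 174 reads (89.1%) and 148 of 163 (90.8%), against 16 reads over both libraries on its most read annotated chain. In all 3 genes the recurrent chain was the most read form in each library. The Sept7 and Mpc1 exons, of 5 and 4 bases, are not multiples of 3, so joining across them shifts the reading frame. Read from the ATG shown, the recurrent Sept7 sequence meets the stop TGA, and the annotated one meets no stop in the stretch shown. Whether such short exons were absent from the RNA or missed when the reads were aligned was not tested, and the aligner is not known. The shares are thus of reads as assigned to chains.

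An annotated exon of 10 bases or less was skipped in 8 chains, and an annotated intron of 10 bases or less was kept in 4, counted against the nearest annotated transcript. Mpc1 is not among them, since its nearest transcript is Mpc1-204, a retained-intron model, and its change is counted at the first exon. The nearest annotated transcript had 0 reads in both libraries for 12 of the 12 chains counted. Whether this reflects the RNA or the alignment of such short exons and introns was not tested. Besides the first chains of Oaz1, Oaz2, Sept7 and Phb2 they included Spock2, an extracellular proteoglycan gene, with a 9-base exon skipped (34 of 174 and 35 of 147 reads), Myo5a, an actin motor gene, also with 9 bases (16 of 55 and 14 of 40), and Cpne9, a copine gene, with 3 bases (16 of 39 and 13 of 44). The remaining ones were in Oaz1 (a further chain), Dmtn, Itih3, Pitpnc1 and Snap91, each with 5 to 13 reads in each library. These 8 chains held between 1.03% and 41.0% of their gene's reads in replicate 1 and between 1.41% and 35% in replicate 2. They were named after their values were seen, for the short length of the exon or intron.

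**Figure D1:**
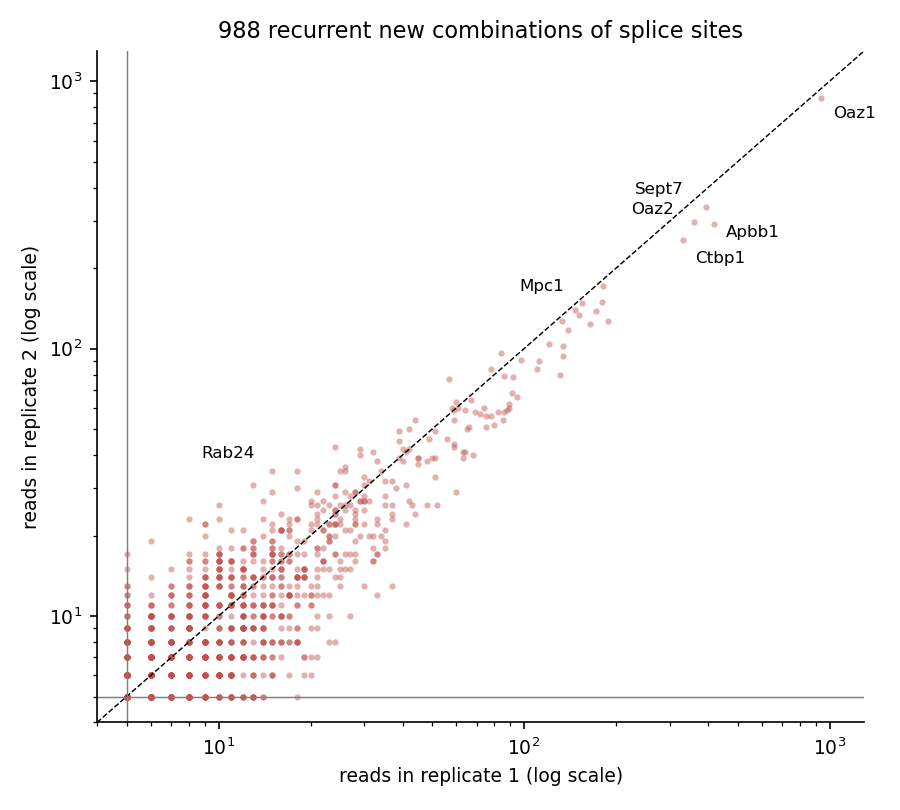
Reads of each of the 988 recurrent chains in replicate 1 (horizontal) and replicate 2 (vertical), both on log scales. The dashed line marks equal reads and the grey lines the minimum of 5 reads. The points lie along the line, from chains at the minimum to Oaz1 with 934 and 869 reads.

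Reads per chain had a median of 11 in replicate 1 and 10 in replicate 2, and 17 chains had 100 or more in each library. The minimum fell within the bulk of the distribution. There were 177 chains with exactly 5 reads in at least 1 library, with a median of 7.89% of their gene's reads, and 205 chains just outside, with 4 reads in one library and 5 or more in the other, with a median of 6.58%.

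In structure, 783 of the 988 recurrent chains used only junctions that annotated transcripts of the gene hold (79.3%, 76.6 to 81.7), in an order none of them has. This share was 3979 of 5710 among chains below the threshold (69.7%, 68.5 to 70.9). The other 205 recurrent chains held a junction in no annotated transcript of the gene (20.7%, 18.3 to 23.4), which joined annotated sites in 151 of them. In 54 chains (5.47%, 4.21 to 7.06), and in 454 below the threshold (7.95%, 7.28 to 8.68), a splice site was absent from the annotation, against their class of known sites.

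Each chain was set against the annotated transcript of its gene with the fewest introns not shared. A single local change separated 904 recurrent chains from it (91.5%, 89.6 to 93.1), against 4592 of the chains below the threshold (80.4%, 79.4 to 81.4). The most frequent kind was another first exon (221 chains), followed by another acceptor (138), a skipped exon (126), a retained intron (98), another donor (86), another last exon (82) and an included exon (78). An intron was removed from within an annotated exon in 42 chains and an exon was swapped for another in 5, while 112 differed in several places or in a complex way. A first exon was the change in 22.4% of recurrent chains (19.9 to 25.1) and 15.5% of those below the threshold (14.6 to 16.5). A retained intron was the change in 9.92% (8.21 to 11.9) and 14.7% (13.9 to 15.7).

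Gene depth moves with these differences. Genes of recurrent chains had a median of 212 reads over both libraries and genes of chains below the threshold 120. Among genes with 100 to under 200 reads, a single change was found in 229 of 257 recurrent chains (89.1%, 84.7 to 92.4) and 1112 of 1426 chains below the threshold (78.0%, 75.8 to 80.1). Unannotated junctions were in 19.5% (15.1 to 24.7) and 27.1% (24.9 to 29.5) there. Both pairs of intervals stayed apart in this range of depth and in genes with 200 to under 500 reads. Chains of the same gene are not independent, and the part of depth in the differences was not tested beyond these ranges.

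**Figure D2:**
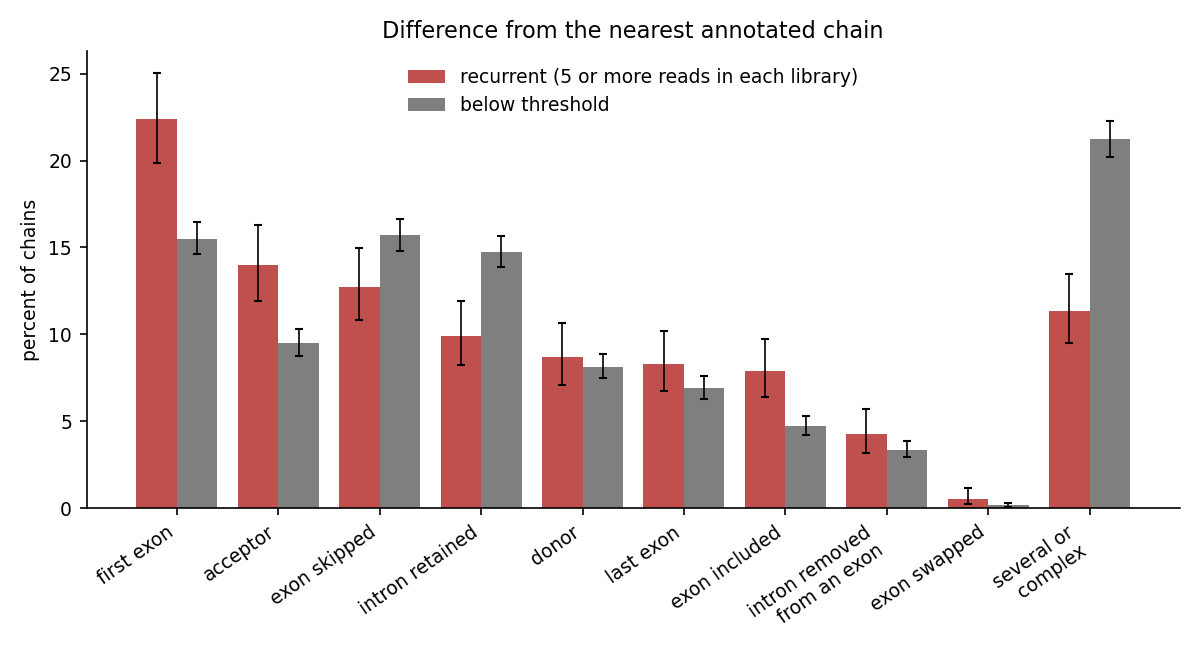
Percent of chains by kind of difference from the nearest annotated chain, for the 988 recurrent chains (red) and the 5710 chains that were NIC in both libraries but below the threshold (grey). Bars are shares of chains with 95% Wilson intervals, and a change at the first exon stands at 22.4% and 15.5%.

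Changes at the first exon altered the 5′ end of the intron chain. In 115 of the 221 chains each form had an intron of its own there, as with an exchanged first exon. In the others, Apbb1, Syt5, Asphd2 and Flywch1 below among them, only 1 of the 2 forms had introns there. Of the 221 chains, 145 held a complete annotated coding region, splice for splice (65.6%), and 62 were the most read form of their gene. The chain of Apbb1, the gene of the amyloid precursor protein adaptor Fe65, had 418 of 699 reads (59.8%, 56.1 to 63.4) and 292 of 542 (53.9%, 49.7 to 58.0), against 88 reads over both libraries on the most read annotated chain. Syt5, a synaptotagmin, had 172 of 281 reads (61.2%) and 138 of 218 (63.3%). Asphd2 had 151 of 267 (56.6%) and 134 of 246 (54.5%), and Jakmip1, which binds microtubules and GABA-B receptors, 110 of 132 (83.3%) and 84 of 105 (80.0%). All 4 of these held the complete coding region of the annotated transcript they were nearest to, and each was the most read form of its gene in both libraries. Flywch1 had 164 of 395 reads (41.5%) and 124 of 331 (37.5%) and held no complete annotated coding region, and against complete protein-coding transcripts it differed in several places.

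Against the nearest annotated transcript, the change was at the last exon in 82 chains (8.30%). This share rests on the choice of transcripts, being 3.71% when only annotated transcripts with reads were compared and 2.65% against complete protein-coding ones. The nearest annotated transcript had 0 reads in both libraries for 52 of the 82 chains. In 7 of the 82, Tpm3 and Cyhr1 among them, each form had an intron of its own there, as with an exchanged last exon. In the others only 1 of the 2 forms had introns there. Tpm3, a tropomyosin of actin filaments, had 181 of 272 reads (66.5%, 60.7 to 71.9) and 171 of 244 (70.1%, 64.1 to 75.5), against 23 and 16 reads on the nearest annotated transcript, Tpm3-203. Cyhr1 had 139 of 345 (40.3%) and 117 of 267 (43.8%). Elmo1, a partner of Dock proteins in Rac activation, had 121 of 150 (80.7%) and 104 of 123 (84.6%). Its nearest transcript, Elmo1-203, is a retained-intron model, and against the protein-coding Elmo1-201 the change was at the first exon. Each of these 3 chains was the most read form of its gene over both libraries.

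Acceptor changes were small. Their lengths had a median of 5 bases, and 65 of the 138 were exactly 3 bases, in 61 genes. Of these 65 chains, 56 lay in the coding region of the nearest annotated transcript, 25 were longer than it and 40 shorter. The 3 bases that the longer form holds ended in AG in 60 of 65 (92.3%, 83.2 to 96.7) and read CAG in 47 (72.3%, 60.4 to 81.7). Bases that no annotated transcript of the gene holds could not be read and count here as not ending in AG. Among 198957 annotated acceptors of protein-coding transcripts, those of last exons included, the first 3 exon bases ended in AG in 5.42%. An acceptor is itself preceded by AG as a rule, so acceptors 3 bases apart come with this ending by construction.

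Ctbp1, a transcriptional corepressor, had the most reads of the 3-base acceptors, with 331 of 552 reads (59.96%, 55.8 to 64.0) and 254 of 454 (55.9%, 51.4 to 60.4), against 71 and 58 on Ctbp1-211, which lacks the 3 bases. Fbxo25, an F-box gene of ubiquitin ligases, had 59 of 82 (72.0%) and 59 of 75 (78.7%), against 11 and 7 on Fbxo25-204. Most of the others were minor forms, since 36 of the 65 had fewer reads than the nearest annotated transcript in both libraries and 19 had more. Acceptors of other lengths were used in Cpne6, a neuronal copine, and in Klc1. The Cpne6 chain was 23 bases shorter in a UTR and had 180 of 374 reads (48.1%, 43.1 to 53.2) and 149 of 392 (38.0%, 33.3 to 42.9), against 65 and 70 on Cpne6-201. Klc1, a kinesin light chain, had 82 of 722 reads (11.4%) and 58 of 578 (10.03%) with 24 bases fewer.

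Donor changes had a median length of 78 bases, and 49 of 86 chains held a complete annotated coding region. Cops7a, a subunit of the COP9 signalosome, had 133 of 186 reads (71.5%) and 127 of 183 (69.4%) on a chain 117 bases shorter in a UTR, against 10 and 10 reads on Cops7a-201. Rnf220, an E3 ubiquitin ligase gene, had 131 of 236 (55.5%, 49.1 to 61.7) and 80 of 197 (40.6%, 34.0 to 47.6) with 78 bases fewer in the coding region. Eno2, the neuronal enolase, had 112 reads (17.4%) and 90 reads (17.9%) with 188 bases more in a UTR, below the 278 and 179 reads of Eno2-201.

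Skipped stretches, of 1 exon in 121 of the 126 chains, had a median length of 91.5 bases. A junction that no annotated transcript of the gene holds was needed in 64 of the 126. Cnksr2, a postsynaptic scaffold gene, had 30 of 64 reads (46.9%) and 28 of 66 (42.4%) without a 147-base exon, against 7 and 12 on Cnksr2-202. Bin1, which bends membranes in endocytosis, had 78 of 200 (39.0%) and 56 of 194 (28.9%) without 108 bases, against 39 and 34 on Bin1-201. Both of these joins are unannotated, and both chains were the most read form of their gene.

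Included exons took a median of 15.6% of the gene's reads, from 1.02% to 77.4%. Ptpra, a receptor tyrosine phosphatase, had 84 of 195 reads (43.1%, 36.3 to 50.1) and 96 of 183 (52.5%, 45.3 to 59.6) with a 27-base exon included, against 70 and 58 on Ptpra-201 without it. Trappc9, a subunit of a vesicle trafficking complex, was named after its values were seen. Its recurrent chain also included 27 bases, with 49 of 91 reads (53.8%) and 46 of 76 (60.5%). The nearest annotated chain, which lacks them, had 9 and 5 reads. The other included exons of up to 27 bases, named after their values were seen, were in Ddhd1, Prpf18, Mtmr1, Mef2a, Ap1b1 and March7. They had 5 to 30 reads in each library, and March7 was the one of these with fewer reads than the annotated chain in both libraries. Ccdc149 had 64 of 82 (78.0%) and 59 of 77 (76.6%) with 33 bases more, against 2 and 5 on Ccdc149-201. Dnm1l, the mitochondrial fission GTPase, had 28 of 114 (24.6%) and 29 of 111 (26.1%) with 111 bases more in 2 exons. Dnm1l-202, which lacks them, had 0 and 0 reads, and the recurrent chain held the coding region of Dnm1l-203. In Tmem87b, a chain with another 72-base exon in place of the annotated one of equal length had 22 of 32 reads (68.8%) and 27 of 32 (84.4%). Tmem87b-201, which has the annotated exon, had 2 and 1 reads. Dlgap4, a postsynaptic scaffold gene, swapped an exon in a minor form, with 9 of 159 (5.66%) and 15 of 191 (7.85%).

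Lengths that are multiples of 3 were frequent inside coding regions. Of the exons skipped or included there, 105 of 162 had such a length (64.8%, 57.2 to 71.7), and of the donor and acceptor changes, 115 of 148 (77.7%, 70.3 to 83.7). Below the threshold the counts were 511 of 956 (53.5%, 50.3 to 56.6) and 368 of 678 (54.3%, 50.5 to 58.0). In UTRs, recurrent chains had 10 of 29 (34.5%, 19.9 to 52.7) and 28 of 67 (41.8%, 30.7 to 53.7). Retained introns in coding regions had 22 of 88 (25%, 17.1 to 34.96). Intervals of recurrent exon changes in coding regions and in UTRs did not overlap, and neither did those of recurrent splice site changes in coding regions and below the threshold. Acceptor changes of exactly 3 bases, multiples of 3 by definition, made up 56 of the 115. Over all locations they were 65 of the 138 acceptor changes of recurrent chains and 153 of the 542 below the threshold, a smaller share. Their part in the difference was not tested.

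**Figure D3:**
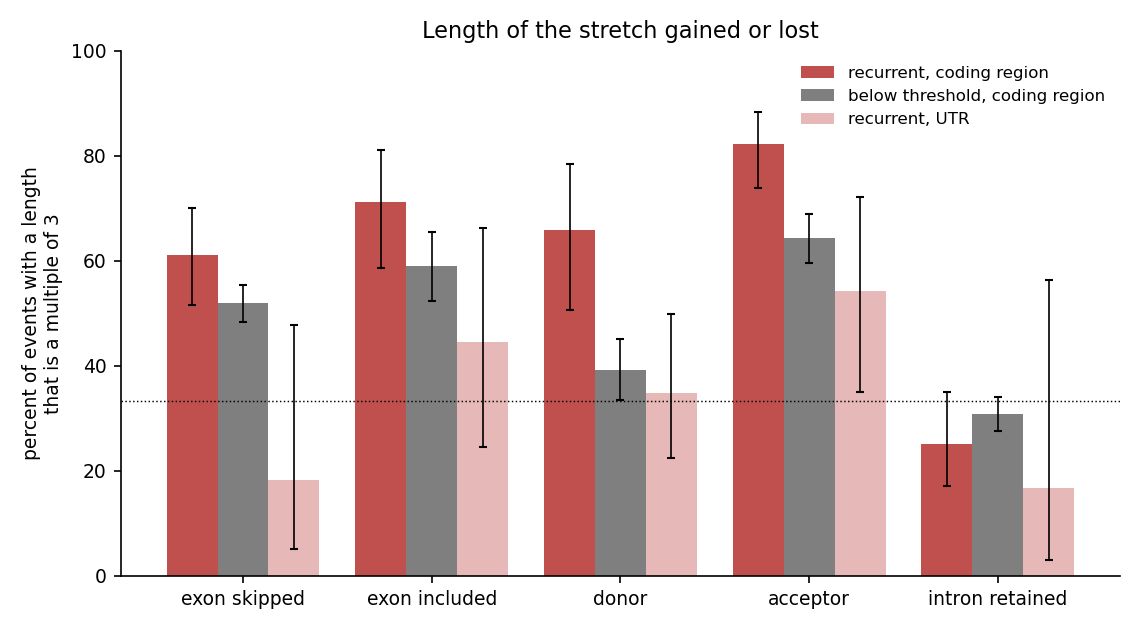
Percent of events whose length is a multiple of 3, by kind of event, for recurrent chains in coding regions (red), chains below the threshold in coding regions (grey) and recurrent chains in UTRs (pink). Bars carry 95% Wilson intervals, the dotted line is the level at which each remainder is equally frequent, and acceptors of recurrent chains in coding regions stand at 82.2%.

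Retained introns held a median of 7.19% of the gene's reads. Of the 98 chains, 8 were the most read form of their gene, among them the Oaz1 and Oaz2 chains that keep 4 bases. Fewer reads than the nearest annotated transcript in both libraries were found in 72 of the 98, and a complete annotated coding region was held by 7. The opposite change was an intron removed from within an annotated exon, in 4.25% of recurrent chains, and in 2.55% when complete protein-coding transcripts were compared. Csnk1g2, a casein kinase, had 188 of 286 reads (65.7%, 60.1 to 71.0) and 127 of 197 (64.5%, 57.6 to 70.8) on a chain without the 81 bases. Csnk1g2-201, which has them, had 24 and 14 reads, and the recurrent chain held the coding region of Csnk1g2-202. Ptov1 had 147 of 263 (55.9%) and 139 of 253 (54.9%) without 184 bases, and Sept3, another septin, 92 of 250 (36.8%) and 78 of 254 (30.7%) without 2414 bases.

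Over all kinds, 351 of the 988 recurrent chains held a complete annotated coding region of their gene (35.5%, 32.6 to 38.6), against 1234 of 5710 below the threshold (21.6%, 20.6 to 22.7). The share was 65.6% for first exons, 57.0% for donors, 13.5% for skipped exons and 7.14% for retained introns. Within genes of 100 to under 200 reads it was 33.1% (27.6 to 39.0) and 19.4% (17.4 to 21.5).

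A recurrent chain held a median of 11.8% of its gene's reads, with a middle range from 5.93% to 22.7%. In 42 chains it exceeded 50% in each library. The most read form of the gene over both libraries was a recurrent chain in 226 genes (227 chains, 1 gene with a tie), and 188 chains were the most read form in each library. More reads than any annotated chain of the gene were found for 331 chains (33.5%, 30.6 to 36.5). In 29 genes no annotated chain had a read, and these held 43 of the 988 recurrent chains (4.35%). Below the threshold the share was alike, with 247 of 5710 chains in genes without reads on annotated chains (4.33%). Uchl3, a ubiquitin hydrolase, was among the genes with the highest share, with 75 of 83 reads (90.4%) and 56 of 72 (77.8%) on 1 recurrent chain and 2 reads over both libraries on its most read annotated chain.

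**Figure D4:**
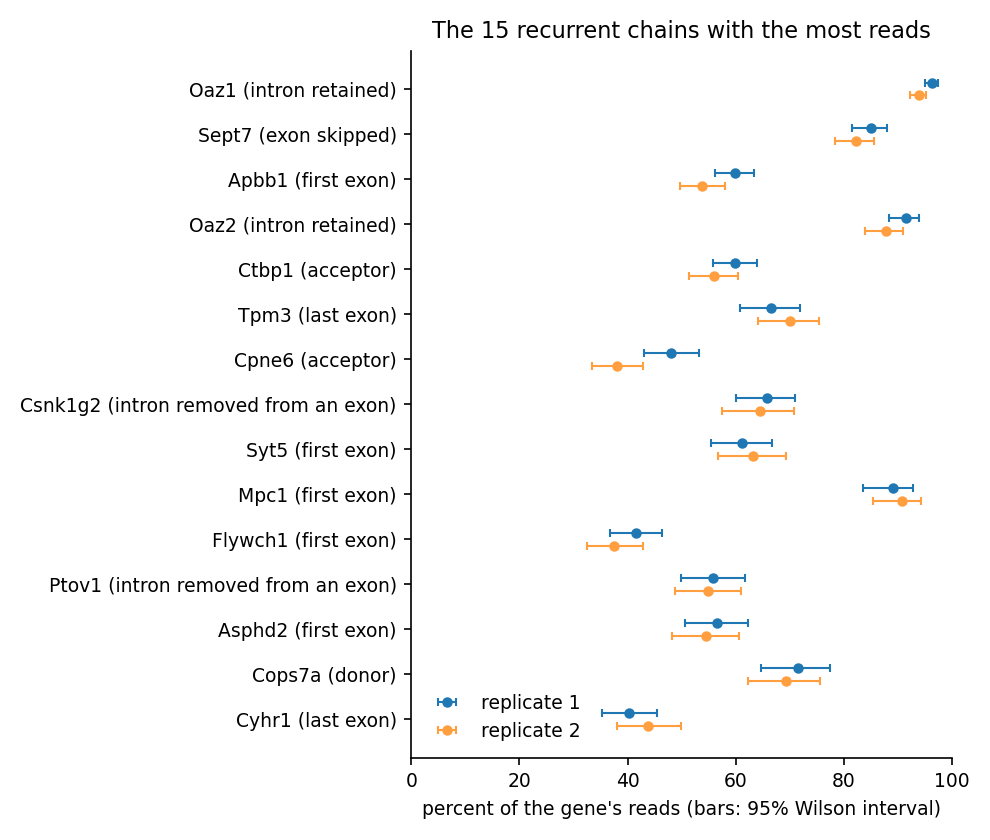
Percent of the gene's reads held by the 15 recurrent chains with the most reads, in replicate 1 (blue) and replicate 2 (orange), with 95% Wilson intervals and the kind of difference in brackets. Oaz1, Oaz2, Sept7 and Mpc1 stand above 80% in both libraries, and the intervals of the libraries overlap for each chain but Cpne6.

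Several recurrent chains in 1 gene were found for 146 genes, with 3 or more in 44. Celf4, an RNA-binding protein of neurons on chromosome 18, had 10 chains that together held 172 of 565 reads (30.4%, 26.8 to 34.4) and 153 of 518 (29.5%, 25.8 to 33.6). The most read of them had 67 and 64 reads, with 30 bases fewer at a donor, and the others 5 to 34 reads in each library. Klc1 had 7 chains with 339 of 722 reads (47.0%, 43.3 to 50.6) and 287 of 578 (49.7%, 45.6 to 53.7). Its most read recurrent chain included a 51-base exon through an unannotated join, with 78 and 84 reads, below the 242 and 184 reads of the annotated Klc1-202.

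Hnrnpk, an RNA-binding protein of the hnRNP family, had 6 recurrent chains with 256 of 543 reads (47.1%, 43.0 to 51.3) and 169 of 377 (44.8%, 39.9 to 49.9). Each of the 6 held a splice site that is absent from the annotation, 16 bases from the nearest annotated site, and its annotated chains had 1 and 1 reads. The most read Hnrnpk form was not one of them but a chain classed as NNC, which has an unannotated site by definition, with 331 reads over both libraries. Across the 54 recurrent chains with an absent site, in 45 genes, 23 had it within 10 bases of an annotated site.

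**Figure D5:**
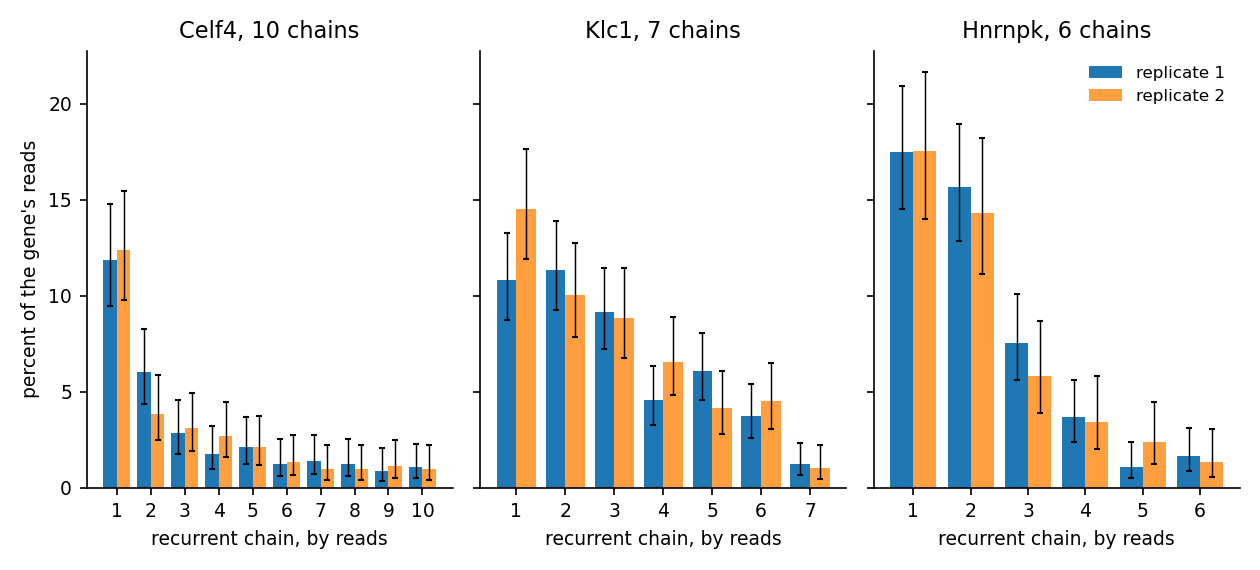
Percent of the gene's reads held by each recurrent chain of Celf4, Klc1 and Hnrnpk, ordered by reads, in replicate 1 (blue) and replicate 2 (orange) with 95% Wilson intervals. The largest chains hold between 10.8% and 17.5% of their gene in each library.

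Genes with more reads had recurrent chains more often, since the rule counts reads. Of genes with 10 to under 50 reads, 46 of 5471 had a recurrent chain (0.841%), and of those with 500 or more, 112 of 446 (25.1%). Between them stood 219 of 1799 genes with 100 to under 200 reads (12.2%) and 235 of 1165 with 200 to under 500 (20.2%). Counts for gene lists stand beside 6.77% of all 11271 genes with 10 or more reads and 16.6% of the 3411 with 100 or more, and lists differ in depth. The lists overlap and were chosen with earlier results of these data known.

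Genes known for alternative splicing in neurons had recurrent chains in 20 of 72 (27.8%), at a median of 203 gene reads, led by Apbb1 and Tpm3. Cytoskeletal genes had them in 13 of 52, led by Sept7 and Tpm3, and synaptic vesicle genes in 11 of 46, led by Bin1 and Dnm1l. RNA-binding and splicing factors had 35 chains in 13 of 58 genes, 16 of them in Celf4 and Hnrnpk. Postsynaptic genes had them in 7 of 38, among them Cnksr2 and Camk2g, a calcium/calmodulin-dependent kinase subunit with 19 and 14 reads on its most read recurrent chain.

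Kinases, phosphatases and G proteins had them in 11 of 59 genes (18.6%), at a median of 301 gene reads. Of all genes with 200 to under 500 reads, 20.2% had them. Prkar1b, a regulatory subunit of protein kinase A, had 86 of 832 reads (10.3%) and 79 of 729 (10.8%) from another first exon, and Ppp2r5c, a regulatory subunit of protein phosphatase 2A, had 56 of 99 (56.6%) and 46 of 84 (54.8%). Among glial lists, 4 of 19 myelin genes (21.1%, median 145 gene reads) and 5 of 25 astrocyte genes (20%, median 634) had a recurrent chain. Of all genes, 12.2% with 100 to under 200 reads and 25.1% with 500 or more had one. Ndrg2, abundant in astrocytes, had 134 of 1034 (13.0%) and 102 of 935 (10.9%) on its largest one, below 360 and 359 on Ndrg2-202. Sept4, a septin listed with myelin genes, had 15 and 14 reads on 1 of its 2 chains and 17 and 12 on the other.

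Other lists had lower shares, and the first 2 below lay under the 20.2% of all genes with 200 to under 500 reads. Nuclear-encoded oxidative phosphorylation genes had them in 4 of 74 (5.41%), at a median of 316.5 gene reads, and the largest, in the complex I gene Ndufs1, had 12 and 9 reads. Ubiquitin, proteasome and autophagy genes had them in 3 of 52 (5.77%), at a median of 298 reads, led by the proteasome gene Psmc4 with a retained intron (9 and 17 reads). Ion pumps, channels and transporters had them in 6 of 52 (11.5%), at a median of 104.5 reads, led by the mitochondrial phosphate carrier Slc25a3 (23 and 19 reads) and the plasma membrane calcium pump Atp2b1 (22 and 16). Long noncoding genes had them in 2 of 20 (10%), at a median of 40 gene reads. This stands beside 0.841% of all genes with 10 to under 50 reads, so the list was not low for its depth. The genes were Meg3, a maternally expressed RNA (15 and 17 reads on the larger chain), and Miat. Of all 988 recurrent chains, 981 were of protein-coding genes.

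Between the libraries, shares of the gene were compared by Fisher's exact test, two-sided, with Benjamini-Hochberg adjustment over all chains with 10 or more reads in genes with 20 or more reads in each library. Of 10610 chains tested 11 passed (0.104%), 6 higher in replicate 1 (0.0566%) and 5 lower (0.0471%). Of the 955 recurrent chains among them 0 passed, with 41 at an unadjusted p under 0.05 (4.29%), beside 615 of all chains (5.8%). The level of a chain relative to the reads on annotated genes was compared by an exact binomial test for chains with 20 or more reads. There 54 of 8255 chains passed (0.654%), 35 higher in replicate 1 (0.424%) and 19 lower (0.23%). Of 554 recurrent chains 0 passed, with 40 at an unadjusted p under 0.05 (7.22%), beside 771 of all chains (9.34%). The rule asks for reads in both libraries, so nothing is read from these counts.

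The ratio of the share in replicate 1 over that in replicate 2 had a median of 0.985 over the 988 chains, with a middle range from 0.769 to 1.23. For the 51 chains with 50 or more reads in each library it ran from 0.742 to 1.37. Wilson intervals of the libraries overlapped for 981 of the 988 chains. Among chains entering the Fisher test they stayed apart for 7 of the 955 recurrent ones (0.733%) and for 139 of all 10610 (1.31%), and nothing is read from this, since reads in both libraries chose the members. The exceptions were Cpne6 and Rnf220, given above, and Pls3, Ldah, Rab24, Prpf18 and Dnajb4, named after their values were seen. Rab24 had the lowest p of the members, with 15 of 119 reads (12.6%) and 35 of 116 (30.2%), and did not pass (adjusted p = 0.271, Fisher's exact test).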

How the data were processed

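Long-read RNA sequencing gave 1 file of read counts per transcript model for each library, deposited by the authors as whole counts with no normalization. The deposited annotation lists TALON as its source, and the deposited notes name mm10 and GENCODE M21. For the aligner and its settings, the sources used here give nothing. Only models with 1 or more reads are listed, so an unlisted chain was taken as 0.

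Models of both libraries were joined by their intron chains. Spike-ins, which took 1.58% of the reads of replicate 1 and 1.33% of those of replicate 2, were left out. Each chain was compared with the annotated transcript of its gene with the fewest unshared introns, ties going to the one with more reads. Shares of gene reads carry 95% Wilson intervals. Shares were compared by Fisher's exact test (10 or more chain reads in total, 20 or more gene reads in each library) and levels by an exact binomial test (20 or more chain reads in total), both two-sided with Benjamini-Hochberg adjustment over all chains and a threshold of 0.05. Scripts used Python 3.11.15, numpy 2.4.6, pandas 2.3.3, scipy 1.17.1 and matplotlib 3.10.9 and were tested on simulated data. Size factors of edgeR 4.0.16 and DESeq2 1.42.0 in R 4.3.3 served as alternative scalings of the counts.

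Chains were named by rule: the 15 with the most reads, the 10 with the largest share of genes with 50 or more reads in each library, the 3 single-change chains with the most reads of each kind, the 3 genes with the most chains, any that differed between libraries, and the 2 most read of each gene list. A chain that this rule names is not reported here. The members and lists were chosen with earlier results of these data known. Alternatives changed the read minimum, the class rule, the reference transcripts, the denominators, the scaling and the libraries.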

Additional observations from a re-analysis of the deposited data

How the results depend on the processing

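The number of recurrent chains followed the read minimum by construction, with 1782 at 3 reads, 431 at 10 and 165 at 20 in each library, and 1489 to 1572 when either library was used alone. The share with an unannotated junction was 16.7% at a minimum of 10 reads, 28.7% with NIC in at least 1 library, 24.4% to 26.5% with 1 library left out and 16.2% without chains that hold a site absent from the annotation. The share with a single change was 89.1% at a minimum of 3 reads, 88.4% to 89.2% with 1 library left out, 89.3% against complete protein-coding transcripts, and 89.1% and 89.2% in genes with 100 to under 200 and 200 to under 500 reads. The share that holds a complete annotated coding region was 31.8% at 3 reads, 40.6% at 20 and 32.4% to 33.0% with 1 library left out. The share of skipped or included stretches with a length that is a multiple of 3, over all locations, was 57.4%. It became 69.0% at 10 reads and 77.8% at 20.

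The median share of the gene was 8.47% at 3 reads, 16.8% at 10, 24.6% at 20, 10.1% to 10.2% with 1 library left out, 12.7% over spliced models and 15.1% over complete annotated, NIC and NNC models. Recurrent chains held a mean of 2.22% of mouse reads, 2.58% of reads on annotated genes and 2.95% of reads of spliced models. Beyond the read minimum and the denominators, the cause was not tested. The number of chains that differed between the libraries moved between 8 and 13 for shares and between 49 and 54 for levels, and 0 recurrent chains passed in each setting. The reference of complete protein-coding transcripts, the set without absent sites, the ranges of gene depth and all alternatives for the coding region were chosen after seeing the data. No paired analysis was possible because the 2 libraries form 1 group. Reads per chain limit precision, since most recurrent chains had under 20 reads in each library.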
